A study of Arabidopsis thaliana with 12 samples.

Results

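A set of 10 Arabidopsis thaliana genes of cell surface immune signalling was followed: the pattern recognition receptors FLS2 (AT5G46330), EFR (AT5G20480), CERK1 (AT3G21630) and LYK5 (AT2G33580), the coreceptors BAK1 (AT4G33430), BKK1 (AT2G13790) and SOBIR1 (AT2G31880), the cytoplasmic kinases BIK1 (AT2G39660) and PBL1 (AT3G55450), and the oxidase RBOHD (AT5G47910). They were picked out by their locus identifiers and are 10 of the 33602 genes counted. The set was chosen with earlier results of these data known. All 10 passed the filter on low counts, as did 20379 genes in all. Transcripts were measured by mRNA sequencing of whole seedlings in 12 libraries, 3 in each of 4 groups. Col-0, the wild type, was treated with DMSO or with 600 nM isoxaben, and ixr1-1, an isoxaben-resistant mutant described by the labels as being in the Col-0 ecotype, received the same treatments. The herbicide isoxaben blocks the making of cellulose, and ixr1-1 carries a point mutation in CESA3, a catalytic subunit of the cellulose synthase of primary walls, which gene counts do not check. The seedlings of all groups were 6 days old, had been grown in shaken liquid medium with sucrose, and were treated for 1 h after those of a flask had been divided between an isoxaben flask and a DMSO flask. The labels name 1 mutant line and do not say how many seed lots were used. They also leave unsaid whether replicates are separate cultures, and a p-value therefore covers only the spread of these libraries, part of which may be technical.

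As background, pattern recognition receptors are plasma membrane proteins that bind microbial molecules outside the cell. FLS2 binds the bacterial flagellin peptide flg22 and EFR the elongation factor Tu peptide elf18, and both form a ligand-induced complex with BAK1 or its paralogue BKK1, members of the SERK family. LYK5 binds chitin, a polymer of fungal walls, and signals together with CERK1, while SOBIR1 is the constant partner of receptor-like proteins that have no kinase of their own. The active complexes phosphorylate BIK1 and its paralogue PBL1, receptor-like cytoplasmic kinases, and BIK1 phosphorylates RBOHD, the NADPH oxidase that makes the apoplastic burst of reactive oxygen.

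The promoters of 5 of the genes are shown because they include the members of both paralogous pairs and the gene with the largest difference between genotypes. Each is the 250 bases upstream of the RefSeq transcript start on TAIR10.1, written 5′ to 3′ on the gene's strand, with the core of the W box, the element bound by WRKY transcription factors, in capitals (TTGAC, or GTCAA where it lies on the other strand). The windows are chr5:18791325-18791574 on the plus strand for FLS2, chr4:16090833-16091082 on the minus strand for BAK1, chr2:5741342-5741591 on the plus strand for BKK1, chr2:16531277-16531526 on the plus strand for BIK1 and chr3:20557394-20557643 on the plus strand for PBL1.
FLS2: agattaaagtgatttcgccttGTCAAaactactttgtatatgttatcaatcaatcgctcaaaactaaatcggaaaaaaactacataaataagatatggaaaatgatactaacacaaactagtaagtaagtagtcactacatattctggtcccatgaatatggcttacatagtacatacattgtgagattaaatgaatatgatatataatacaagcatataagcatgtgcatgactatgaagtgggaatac
BAK1: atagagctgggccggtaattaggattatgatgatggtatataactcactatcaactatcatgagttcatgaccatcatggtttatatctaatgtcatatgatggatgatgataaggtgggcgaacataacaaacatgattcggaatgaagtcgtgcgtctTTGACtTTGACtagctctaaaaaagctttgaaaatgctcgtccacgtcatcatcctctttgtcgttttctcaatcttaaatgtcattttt
BKK1: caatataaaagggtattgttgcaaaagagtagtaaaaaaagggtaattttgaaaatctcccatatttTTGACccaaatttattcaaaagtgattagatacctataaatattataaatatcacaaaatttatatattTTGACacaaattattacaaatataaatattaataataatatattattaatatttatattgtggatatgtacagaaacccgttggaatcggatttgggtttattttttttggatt
BIK1: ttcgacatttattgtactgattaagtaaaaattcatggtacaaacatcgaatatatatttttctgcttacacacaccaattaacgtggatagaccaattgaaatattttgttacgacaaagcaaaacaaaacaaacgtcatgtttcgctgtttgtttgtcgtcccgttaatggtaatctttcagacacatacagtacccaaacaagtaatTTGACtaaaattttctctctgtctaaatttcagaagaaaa
PBL1: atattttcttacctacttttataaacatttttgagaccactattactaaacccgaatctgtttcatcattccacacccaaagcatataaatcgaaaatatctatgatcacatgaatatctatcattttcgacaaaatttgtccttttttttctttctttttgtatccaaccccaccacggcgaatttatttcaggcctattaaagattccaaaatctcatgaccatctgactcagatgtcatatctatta

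A W box core was present in this window in 9 of the 10 genes and in 44.9% of the 27443 protein-coding promoters searched in the same way on both strands. PBL1 was the gene without a match. The BAK1 promoter held a pair of cores that begin 90 and 84 bases upstream of the start and lie in the same orientation with 1 base between them. Its paralogue BKK1 also had a pair, 183 and 114 bases upstream, and BIK1 had 1 at 40 bases, FLS2 1 at 229 bases on the other strand. None of the 10 windows held the G box CACGTG, the GCC box GCCGCC or the CAMTA core CGCG, which occurred in 1780, 513 and 2783 of the 27443 promoters. These matches are letters in a window and not measured binding, and the RefSeq starts lie 24 to 971 bases upstream of the gene starts given in the files.

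Libraries held 8521491 to 20658035 counts, with the smallest being ixr1-1 DMSO 1. Over the 12 libraries the members were covered by 809 counts for EFR to 17773 for SOBIR1, and the lowest count of any member in any library was 40. Root and shoot markers, which a whole seedling should express, were all counted in every library. The summed level of the 8 root markers overlapped between genotypes (2952 to 3923 CPM, the counts scaled by TMM to a common library size, over the 12 libraries). Singly, 1 of the 8 was lower in ixr1-1 in DMSO and 1 higher in isoxaben (edgeR adjusted p under 0.05). Of all genes tested, 17.2% and 12.8% were called in these comparisons. Isoxaben lowered 1 of the 8 in Col-0, where 0.78% of all genes were called. The summed level of the 10 shoot markers did not overlap, at 30043 to 34189 CPM in Col-0 and 24501 to 28898 CPM in ixr1-1. Transcripts of 12 seed storage and oil body genes, which mark the maturing embryo, summed to 1.43 to 3.51 CPM in Col-0 and to 111 to 723 CPM in ixr1-1. In whole seedlings, a change in the share of a cell type and a change in RNA per cell cannot be told apart.

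In Col-0 treated with DMSO the members differed widely in level. On the scale of CPM per kilobase of exon, which allows genes to be compared, SOBIR1 stood highest at 29.6 ± 1.38 (SD, n = 3 here and below), followed by RBOHD at 23.2 ± 1.62, BAK1 at 18.3 ± 1.16, BKK1 at 15.0 ± 1.27 and CERK1 at 12.9 ± 0.219. The cytoplasmic kinases BIK1 (8.69 ± 0.665) and PBL1 (7.93 ± 0.370) overlapped between libraries, as did the receptors LYK5 (3.09 ± 0.798) and FLS2 (2.80 ± 0.400). EFR was lowest at 1.04 ± 0.183. All other neighbours in this order were separated in every library. The median tested gene lay at 10.6 CPM per kilobase. Of the pattern recognition receptors, FLS2, EFR and LYK5 fell in the lower part of the distribution (percentiles 19.9, 7.33 and 21.5), while CERK1 lay above the median at percentile 55.8. SOBIR1, RBOHD and BAK1 lay in the upper part (77.6, 71.8 and 65.4). The order changed in ixr1-1 in DMSO, where BKK1 (26.6 ± 2.14) stood above BAK1 (24.0 ± 2.79) and FLS2 (8.02 ± 2.09) above LYK5 (7.65 ± 1.37), with overlapping libraries in both cases. SOBIR1 reached 79.0 ± 17.6 CPM per kilobase there.

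**Figure D1:**
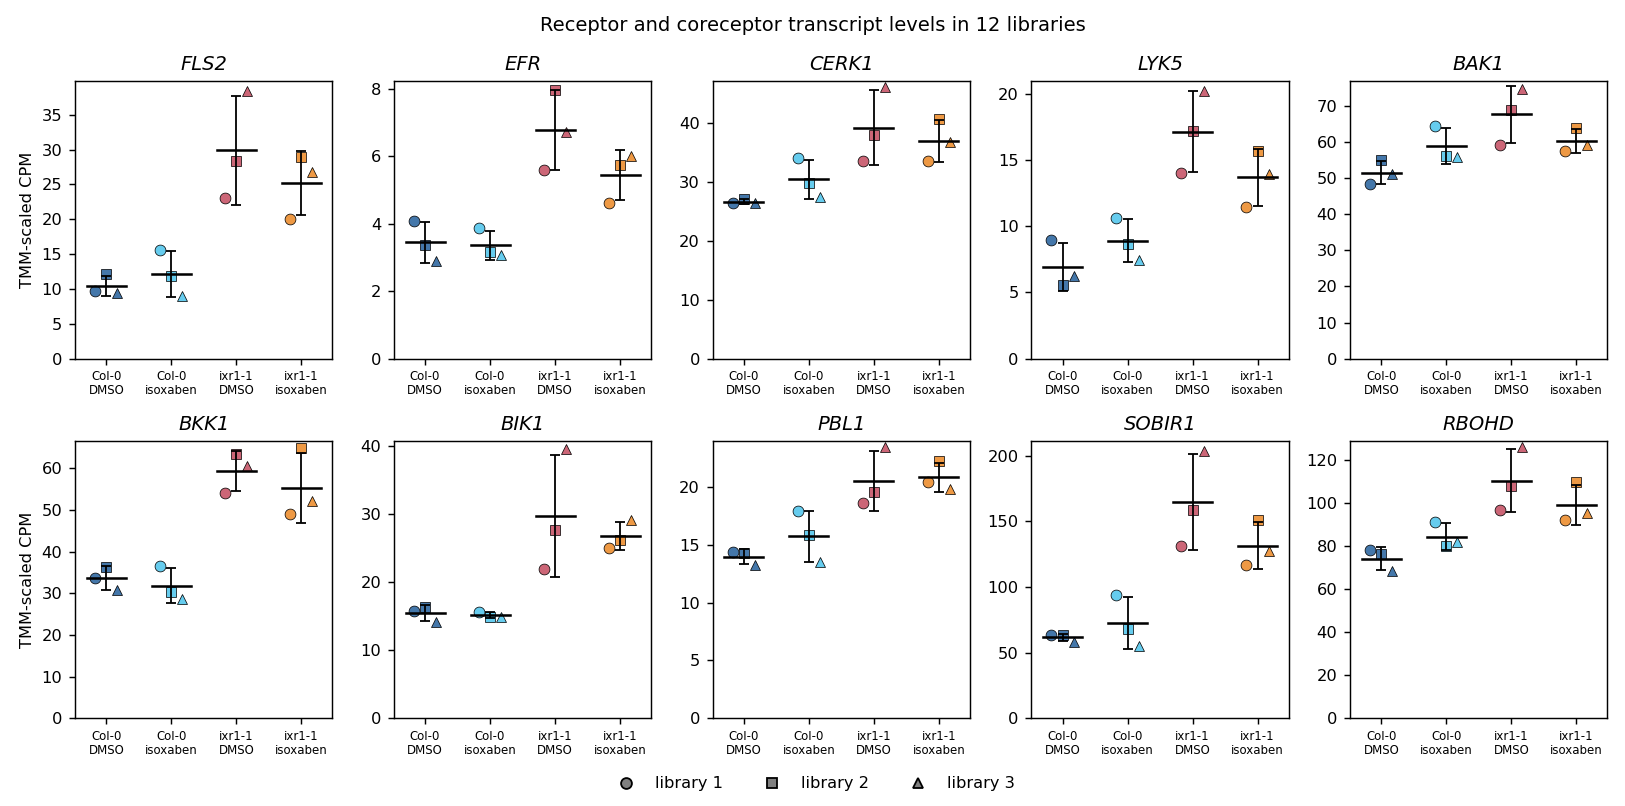
Transcript level of each gene in the 12 libraries, as TMM-scaled CPM on a linear axis from 0, with the 4 groups on the horizontal axis, library numbers as symbols, group means as bars and SD as error bars. In DMSO, the 3 ixr1-1 libraries lie above the 3 Col-0 libraries in all 10 panels, while for BAK1 and CERK1 the isoxaben groups overlap.

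In DMSO, all 10 genes had a higher level in ixr1-1 than in Col-0, by 0.40 to 1.52 on the log2 scale, and the libraries of the genotypes did not overlap for any of them. By edgeR's quasi-likelihood test with Benjamini-Hochberg adjustment over the 20379 genes, each was called at an adjusted p of 0.00243 or less. In this comparison 17.2% of all genes tested were called, 9.79% as higher and 7.42% as lower in ixr1-1, and 33.7% of genes had libraries that did not overlap, 17.6% with ixr1-1 higher. The median log2 fold change of the 10 genes was 0.89, against -0.00104 over all genes.

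Among the receptors, FLS2 differed most. It measured 9.75, 12.2 and 9.43 CPM in the Col-0 DMSO libraries and 23.0, 28.3 and 38.4 CPM in those of ixr1-1, so the lowest mutant library was above the highest wild-type library. The log2 fold change was 1.52 ± 0.23 (SE), with an adjusted p of 0.00135 in edgeR. LYK5, the chitin receptor, had 8.93, 5.55 and 6.24 CPM in Col-0 and 14.0, 17.2 and 20.2 CPM in ixr1-1, with no overlap. Its log2 fold change was 1.32 ± 0.18 (SE; edgeR adjusted p = 0.00017). EFR, the least abundant member, had 4.09, 3.37 and 2.88 CPM in Col-0 against 5.61, 7.97 and 6.72 CPM in ixr1-1, a log2 fold change of 1.02 ± 0.18 (SE; edgeR adjusted p = 0.000461) with separate groups. CERK1, the kinase that LYK5 needs to signal, differed less than LYK5. Its levels were 26.4, 27.2 and 26.5 CPM in Col-0 and 33.5, 38.0 and 46.2 CPM in ixr1-1, and its log2 fold change was 0.56 ± 0.10 (SE; edgeR adjusted p = 0.00112).

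The coreceptors differed by unequal amounts. SOBIR1, the partner of receptor-like proteins, had 63.4, 63.1 and 58.3 CPM in Col-0 and 131, 159 and 204 CPM in ixr1-1, and its log2 fold change was 1.42 ± 0.21 (SE; edgeR adjusted p = 0.00163). The 3 Col-0 libraries were close together and the mutant libraries spread over a range wider than the whole wild-type level. BKK1 had 33.8, 36.3 and 30.7 CPM in Col-0 and 54.1, 63.4 and 60.6 CPM in ixr1-1, a log2 fold change of 0.83 ± 0.11 (SE; edgeR adjusted p = 9.69e-05). BAK1, its paralogue and the shared partner of FLS2 and EFR, had 48.5, 55.0 and 51.0 CPM in Col-0 and 59.2, 68.9 and 74.8 CPM in ixr1-1. Its log2 fold change of 0.40 ± 0.08 (SE; edgeR adjusted p = 0.00243) was the smallest of the 10, and the difference between the paralogues was not tested. Coding sequences of BAK1 and BKK1 are 82.0% identical, and those of BKK1 and SERK5, a further family member next to it in the genome, 91.4%. The joined exons of BKK1 and SERK5, with any untranslated parts, share an identical stretch of 473 bases. Because reads from such a stretch cannot be assigned with certainty, the sum of BKK1 and SERK5 was also followed: it was 38.8 ± 2.17 CPM in Col-0 and 66.5 ± 4.78 CPM in ixr1-1 in DMSO, and the libraries did not overlap.

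Downstream of the receptors, BIK1 had 15.8, 16.4 and 14.1 CPM in Col-0 and 22.0, 27.7 and 39.5 CPM in ixr1-1, a log2 fold change of 0.95 ± 0.16 (SE; edgeR adjusted p = 0.00103). PBL1, with a coding sequence 79.6% identical to that of BIK1, had 14.4, 14.3 and 13.2 CPM against 18.6, 19.5 and 23.5 CPM, a log2 fold change of 0.56 ± 0.11 (SE; edgeR adjusted p = 0.00131). Both kinases were higher in each mutant DMSO library than in any wild-type one. RBOHD, the oxidase that BIK1 phosphorylates, had 78.1, 76.3 and 68.4 CPM in Col-0 and 97.0, 108 and 126 CPM in ixr1-1, a log2 fold change of 0.57 ± 0.09 (SE; edgeR adjusted p = 0.000311).

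The mutant libraries did not contribute equally. Within ixr1-1 DMSO, library 1 was the lowest for 10 of 10 genes and library 3 the highest for 8. Library 1 also had the lowest seed storage sum of that group, 222 CPM against 723 CPM in library 2 and 613 CPM in library 3, and the smallest total count. Leaving out both ixr1-1 libraries numbered 1 left all 10 genes called, and 3208 of all genes against 3509 with every library. Since library 1 was the lowest of ixr1-1 DMSO for all 10, this fit could hardly lose a call and is no check of the calls. Over all 12 libraries, the genotype and the seed storage level cannot be told apart, since no Col-0 library approached the mutant range: with the log2 seed storage sum as a covariate 0 of the 10 genes were called, as were 0 genes of all 20379. The log2 fold changes of the 10 in DMSO then ran from 0.02 ± 0.40 (SE) for CERK1 and 0.02 ± 0.68 for EFR to 0.60 ± 0.44 for PBL1 and 0.85 ± 0.85 for SOBIR1. With an SE of 0.33 to 0.87 over the 10, differences between the genes cannot be read from this fit and were not tested. With the shoot marker sum as a covariate, added after the data were seen, 3 of the 10 were called (EFR, LYK5 and BKK1) with log2 fold changes of 1.03, 1.03 and 0.68. In that fit 1208 of all 20379 genes were called, against 3509 without the covariate. The shoot marker sum was lower in every ixr1-1 library than in every Col-0 library, and 4 of its 10 genes were called lower in DMSO. The part that either set of transcripts has in the genotype differences was not tested beyond these fits.

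**Figure D2:**
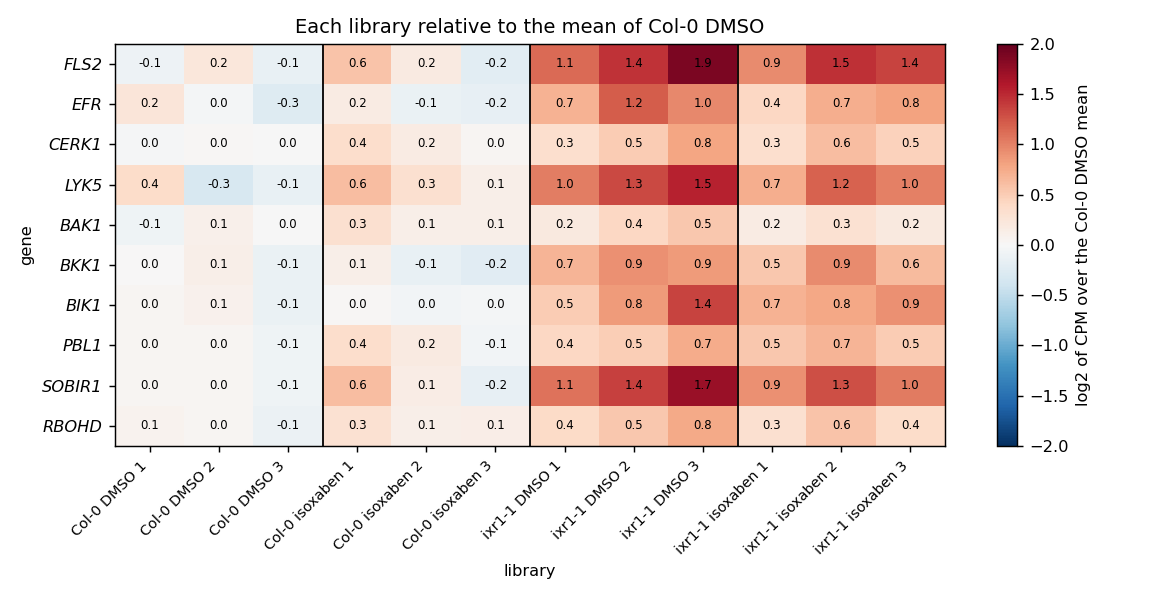
Level of each gene (rows) in each library (columns) as the log2 ratio of its CPM to the mean of the 3 Col-0 DMSO libraries, with the ratio printed in each cell and black lines between groups. Library 3 of ixr1-1 in DMSO is highest for 8 of 10 genes, library 1 of that group is lowest for 10 of 10, and library 1 of Col-0 in isoxaben is the highest of its group for 10 of 10.

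In isoxaben, 7 of the 10 genes were called higher in ixr1-1 than in Col-0 and the remaining 3 were not called. Over all genes 12.8% were called, 6.92% as higher and 5.85% as lower, and 30.6% had separate libraries, 15.8% with ixr1-1 higher. The called genes were FLS2 (log2 fold change 1.09 ± 0.23, SE), SOBIR1 (0.87 ± 0.21), BIK1 (0.83 ± 0.16), BKK1 (0.81 ± 0.11), EFR (0.73 ± 0.18), LYK5 (0.64 ± 0.18) and PBL1 (0.41 ± 0.11), with edgeR adjusted p-values of 0.000278 for BKK1 to 0.0315 for LYK5. CERK1 had a log2 fold change of 0.29 ± 0.10 (adjusted p = 0.0765), RBOHD of 0.23 ± 0.09 (adjusted p = 0.105) and BAK1 of 0.04 ± 0.08 (adjusted p = 0.815). Libraries of the genotypes were separate for 8 genes and overlapped for CERK1 and BAK1. The median log2 fold change of the 10 was 0.69, against 0.00348 over all genes.

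FLS2 had 15.5, 11.8 and 9.00 CPM in the isoxaben libraries of Col-0 and 20.1, 28.9 and 26.8 CPM in those of ixr1-1. SOBIR1 had 94.0, 68.1 and 55.1 CPM in Col-0 and 117, 151 and 127 CPM in ixr1-1, with a wide spread in the wild type. BAK1 had 64.5, 56.1 and 55.7 CPM in Col-0 and 57.6, 63.9 and 59.0 CPM in ixr1-1, and here the wild-type library 1 was the highest of the 6. That library was the highest of its group for 10 of 10 genes and, at 3923 CPM, had the highest root marker sum of all 12; the part of tissue makeup in this was not tested. BKK1 had 36.5, 30.3 and 28.6 CPM in Col-0 and 48.9, 64.7 and 52.1 CPM in ixr1-1, and the sum of BKK1 and SERK5 was 38.4 ± 3.07 and 62.8 ± 8.56 CPM. BIK1 had 15.6, 14.9 and 14.9 CPM against 25.1, 26.2 and 29.1 CPM, and the 3 wild-type libraries lay close together.

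The number of genes called in isoxaben depended on single libraries. It was 3 without Col-0 isoxaben 2, without Col-0 isoxaben 3 or without ixr1-1 isoxaben 2, and 4 without ixr1-1 isoxaben 3, and leaving out another library in turn gave 7 or 8. All genes called fell as well, from 2602 to 1664, 1570, 1549 and 1712, in the same order. Whether the 10 genes lost calls more often than other genes was not tested. BKK1 and BIK1 were called in all 12 of these fits, with a highest adjusted p of 0.00357 and 0.0274 in edgeR. With the seed storage sum or the shoot marker sum as a covariate 0 of the 10 were called. Calls were lost over all genes as well, with 0 and 167 of 20379 called in these fits. Taking both treatments together, the 6 ixr1-1 libraries lay above the 6 Col-0 libraries for 8 of the 10 genes, the exceptions again being CERK1 and BAK1; 13.6% of all genes were separate in this way, 7.31% with ixr1-1 higher.

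**Figure D3:**
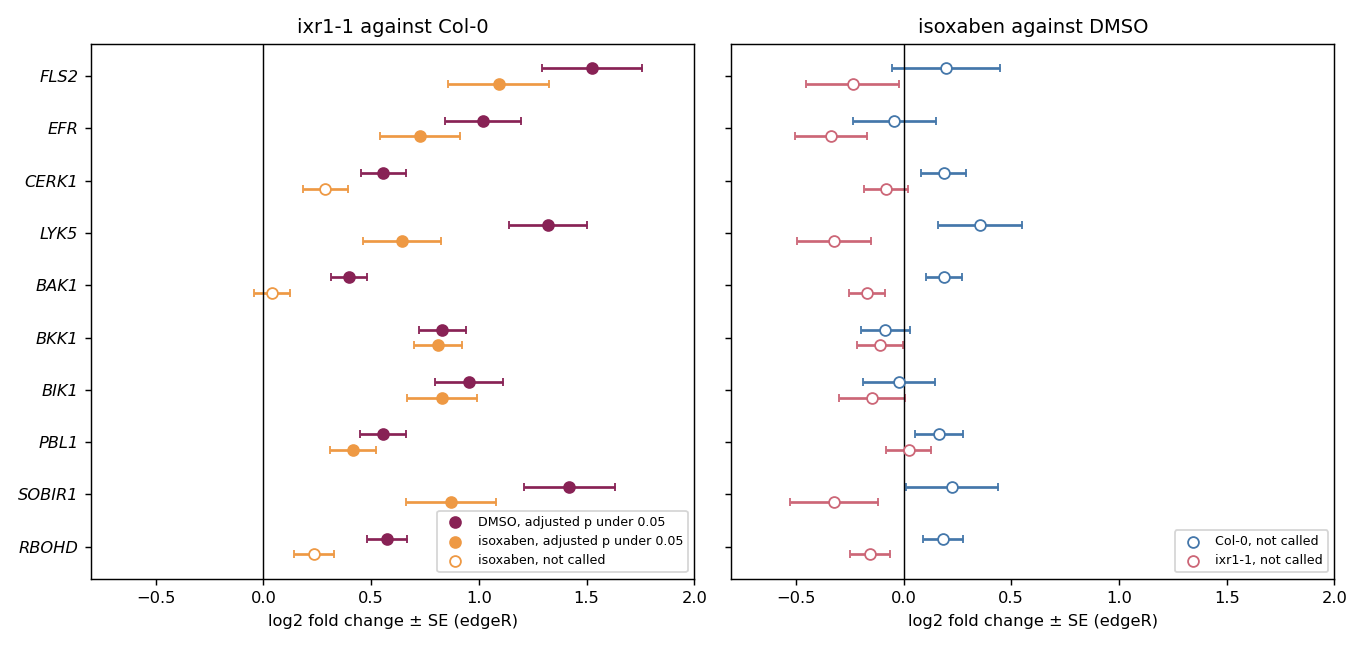
Log2 fold change of each gene with its SE from edgeR, for ixr1-1 against Col-0 (left, in DMSO and in isoxaben) and for isoxaben against DMSO (right, in Col-0 and in ixr1-1), with filled points for an adjusted p under 0.05. The genotype differences run from 0.40 to 1.52 in DMSO and from 0.04 to 1.09 in isoxaben, and no gene is called for isoxaben in either genotype.

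Isoxaben for 1 h changed the level of 0 of the 10 genes in Col-0 at the threshold, where 0.78% of all genes were called. The log2 fold changes ran from -0.08 for BKK1 to 0.36 for LYK5, with a median of 0.19 against -0.00143 over all genes, and 7 of 10 were positive. At an unadjusted p under 0.05 in edgeR, where 6.81% of all genes lay, there was 1 gene, BAK1 (0.19 ± 0.08, SE; unadjusted p = 0.0383, adjusted p = 0.677), and DESeq2 and limma-voom called 0 as well. The Col-0 libraries of the treatments did not overlap for BAK1, CERK1 and RBOHD, 3 of 10, where 12.8% of all genes had separate libraries. RBOHD had 78.1, 76.3 and 68.4 CPM in DMSO and 91.4, 80.2 and 81.9 CPM in isoxaben. Its log2 fold change was 0.19 (edgeR unadjusted p = 0.0611, adjusted p = 0.795). The nominal 95% interval, 0.0037 to 0.37, uses a normal quantile and is narrower than the F test implies. It is therefore not read as excluding 0. CERK1 had 26.4, 27.2 and 26.5 CPM against 34.1, 29.9 and 27.5 CPM, with an interval of -0.02 to 0.39. For FLS2 the interval ran from -0.30 to 0.69, so with 3 libraries a group a change anywhere in this range remained compatible with the data.

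In ixr1-1, isoxaben likewise changed 0 of the 10 genes, and 0% of all 20379 genes were called by edgeR, with 742 genes (3.64%) at an unadjusted p under 0.05. The log2 fold changes ran from -0.34 for EFR to 0.02 for PBL1, 9 of 10 being negative, with a median of -0.16 against -0.00187 over all genes. None of the 10 had an unadjusted p under 0.05 in edgeR, and DESeq2 and limma-voom called 0. Libraries of the treatments overlapped for all 10, while 8.19% of all genes had separate libraries. Both ixr1-1 libraries numbered 1 were low, with library 1 of the isoxaben group the lowest for 9 of 10 genes and library 2 the highest for 8. SOBIR1 shows the overlap: 131, 159 and 204 CPM in DMSO and 117, 151 and 127 CPM in isoxaben.

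The interaction asks whether the effect of isoxaben differed between the genotypes. It was called for 0 of the 10 genes and for 0.314% of all genes in edgeR, and DESeq2 and limma-voom called 0 of the 10. All 10 estimates were negative, from -0.02 for BKK1 to -0.68 for LYK5 (ixr1-1 minus Col-0), with a median of -0.32 against -0.00143 over all genes. At an unadjusted p under 0.05, where 4.76% of all genes lay (971), there were 3, BAK1 (-0.36 ± 0.12, SE; unadjusted p = 0.00702, adjusted p = 0.53 in edgeR), RBOHD (-0.34 ± 0.13; adjusted p = 0.797) and LYK5 (-0.68 ± 0.26; adjusted p = 0.822). The treatment effects, the genotype differences and the interaction share the same libraries, so the signs are not separate evidence.

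The rest of the pathway was taken from lists of other receptors, SERK and BIR genes, receptor-like cytoplasmic kinases, regulators of the complexes, glycoprotein quality control in the endoplasmic reticulum (ER), other RBOH oxidases and target genes of pattern-triggered immunity. In DMSO, 4 of 15 other receptors were called higher in ixr1-1 and 0 lower, with a median log2 fold change of 0.21. For these and the lists that follow, the share over all genes in DMSO was 9.79% higher and 7.42% lower. The receptors called included RLP23, a receptor-like protein that binds the nlp20 peptide and works through SOBIR1. It measured 0.940 ± 0.318 CPM in Col-0 and 10.7 ± 5.43 CPM in ixr1-1 (log2 fold change 3.52 ± 0.51, SE; edgeR adjusted p = 0.0012). PSKR1, the phytosulfokine receptor, had a log2 fold change of 1.05, the S-domain kinase SD1-29 1.23 and AT4G08850 1.63. Of the SERK and BIR genes 3 of 7 were higher and 0 lower, among them BIR1, a BAK1-interacting kinase that restrains immune signalling (0.93 ± 0.17, SE), the kinase gene AT5G63710 (0.40 ± 0.07) and SERK5 (0.43 ± 0.14). SERK5 may share reads with BKK1 and was called in 3 of the 12 fits that leave out 1 library (highest adjusted p 0.161, without Col-0 DMSO 2).

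Receptor-like cytoplasmic kinases followed, with 11 of 19 higher and 0 lower in DMSO and a median log2 fold change of 0.29. RIPK, which also phosphorylates RBOHD, measured 26.6 ± 0.790 CPM in Col-0 and 42.3 ± 0.564 CPM in ixr1-1 (0.67 ± 0.08, SE). NAK differed by 0.67. AT4G17660, also among the 11, had 0.255 ± 0.0834 CPM in Col-0 and entered the test only through the ixr1-1 libraries, since 0 of 6 Col-0 libraries reached the 0.689 CPM that the filter asks for in 3. Its log2 fold change of 2.67 and its place in the count are therefore given as a description. Of the complex regulators 4 of 14 were higher and 1 lower. CPK28, a calcium-dependent kinase that promotes the turnover of BIK1, was higher by 0.87 ± 0.10 (SE) and CNGC4, a subunit of a calcium channel, lower by 0.58 on the log2 scale (-0.58 ± 0.07, SE). Also higher were CPK5 (0.35), a calcium-dependent kinase that phosphorylates RBOHD, the G protein subunit AGB1 (0.32) and XLG2 (0.76), an extra-large G protein.

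Of the ER quality control genes, which EFR needs to mature, 1 of 6 was higher in ixr1-1 in DMSO and 0 lower. This was the calreticulin CRT3 (0.39 ± 0.07, SE), and the list median was -0.10; a count of 1 in 6 is near the share over all genes. Of the 9 other RBOH genes 7 were tested: RBOHA (0.53) and RBOHF (0.35) were called higher and RBOHB (-0.33) lower, while RBOHH and RBOHJ had too few counts. RBOHA and RBOHB each overlap a gene on the opposite strand, so their counts may hold reads of the neighbour. Leaving out 1 library at a time gave 0 (without Col-0 DMSO 3) to 4 called RBOH genes, so none of these 3 calls held in all 12 fits. Among the target genes of pattern-triggered immunity 5 of 8 were higher and 0 lower, with a median of 1.44: CYP81F2 of indole glucosinolate metabolism (3.02), the transcription factor gene WRKY33 (2.33), the elicitor peptide precursor gene PROPEP3 (1.96), the flg22-responsive kinase gene FRK1 (1.90) and the kinase gene MPK3 (0.98). FRK1 had 2.28 ± 0.351 CPM in Col-0 and 8.47 ± 3.30 CPM in ixr1-1.

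In isoxaben, the genotype comparison of the same lists gave 3 higher and 1 lower of 15 other receptors, 1 and 0 of 7 SERK and BIR genes, 7 and 0 of 19 cytoplasmic kinases, 2 and 2 of 14 complex regulators, 1 and 0 of 6 ER quality control genes, 1 and 0 of 7 RBOH genes and 1 and 1 of 8 target genes, beside 6.92% higher and 5.85% lower over all genes. The lower receptor was PEPR2 (-0.98 ± 0.16, SE), which binds the peptides cut from PROPEP precursors, and the lower target was PROPEP3 (-1.24 ± 0.29). CYP81F2 was the target that was higher (2.19 ± 0.35). The 7 cytoplasmic kinases again included AT4G17660, which entered the test only through the ixr1-1 libraries, so its call is a description. The complex regulators called numbered 1 without Col-0 isoxaben 2, against 4 with all libraries, where all genes called fell from 2602 to 1664. The call of RBOHF was lost without Col-0 isoxaben 1 or 3 and without ixr1-1 isoxaben 1 or 2. Without single libraries the other receptors called numbered 3 to 5 and the cytoplasmic kinases 5 to 7. With the seed storage sum as a covariate 0 genes of each of these lists were called for the genotype in either treatment, as were 0 of all genes. With the shoot marker sum 0 genes of each list were called in isoxaben, beside 167 of all genes. In DMSO that fit called 6 cytoplasmic kinases, 3 target genes and 2 complex regulators, beside 1208 of all genes. Each remaining list had 1 called.

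Isoxaben in Col-0 raised a receptor outside the set of 10 and some target genes. PEPR2 measured 6.14 ± 0.821 CPM in DMSO and 14.7 ± 3.02 CPM in isoxaben (1.28 ± 0.16, SE; edgeR adjusted p = 0.00022), and was 1 of 15 other receptors called. Of the 8 target genes 3 were called higher and 0 lower, where 0.78% of all genes were called. PROPEP3 went from 0.985 ± 0.267 to 4.80 ± 0.257 CPM (2.31 ± 0.32), WRKY33 from 12.1 ± 3.02 to 38.2 ± 1.29 CPM (1.68 ± 0.29) and MPK3 from 33.1 ± 2.04 to 48.8 ± 2.64 CPM (0.56 ± 0.10). The call of WRKY33 was lost without any 1 of the 6 Col-0 libraries, without ixr1-1 DMSO 2 and without ixr1-1 isoxaben 3 (highest adjusted p 0.191 in edgeR), while those of PEPR2, PROPEP3 and MPK3 held in all 12 such fits. PEPR2 and WRKY33 overlap a gene on the opposite strand by 14 and 26 bases. The SERK and BIR, cytoplasmic kinase, complex regulator, ER quality control and RBOH lists had 0 genes called, the smallest unadjusted p in each being 0.0266 for SERK1, 0.000957 for APK2B, 0.0354 for CPK28, 0.3 for CRT3 and 0.0245 for RBOHC in edgeR. In ixr1-1, 0 genes of any of these lists were called for isoxaben. The interaction was called for 1 of 15 other receptors, PEPR2, and 2 of 8 target genes, PROPEP3 and MPK3, each with a negative estimate (ixr1-1 minus Col-0), where 0.314% of all genes were called. PROPEP3 kept this call without each library in turn, MPK3 in 7 and PEPR2 in 3 of the 12 fits.

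**Figure D4:**
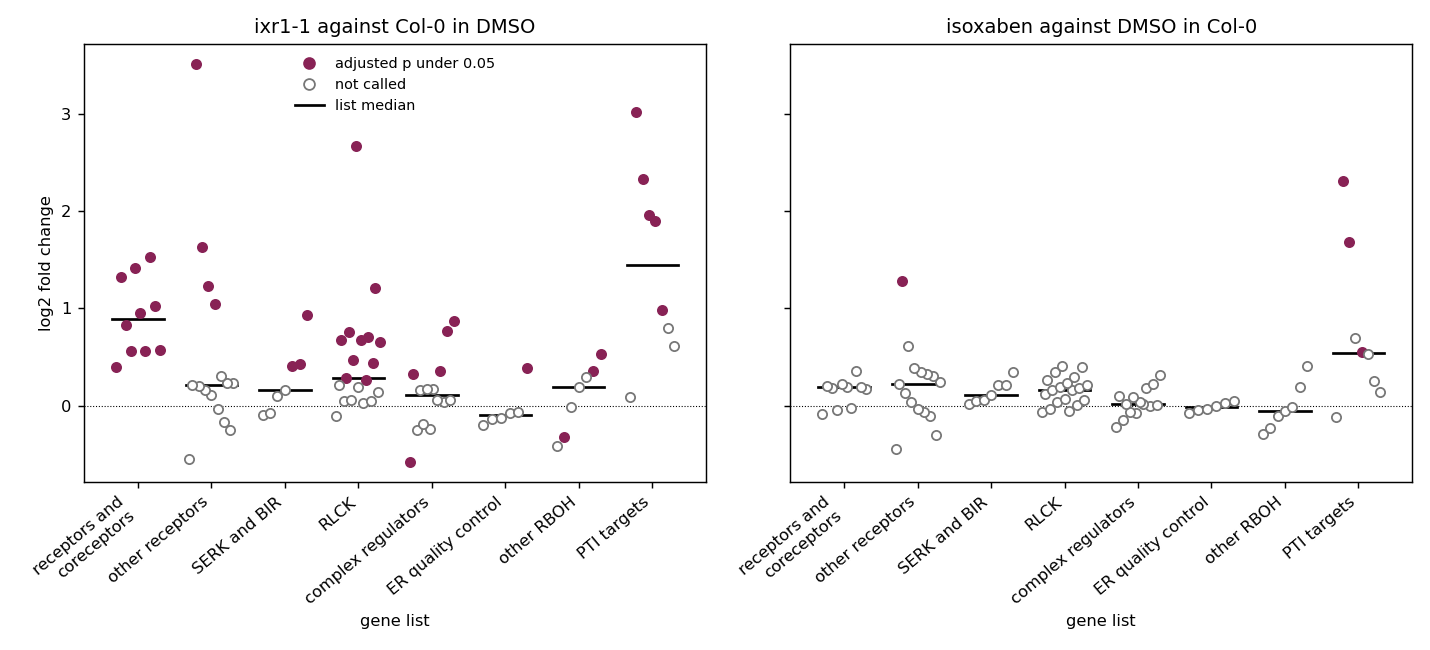
Log2 fold change of each tested gene of the 8 lists for ixr1-1 against Col-0 in DMSO (left) and isoxaben against DMSO in Col-0 (right), with filled points for an edgeR adjusted p under 0.05 and black bars for list medians. All 10 receptor and coreceptor genes are filled in the genotype panel (median 0.89) and none in the treatment panel (median 0.19).

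The genes whose levels across the 12 libraries were most like those of each member were ranked by the root mean square difference of centred log2 CPM over 18197 genes. Nearest to CERK1 were MLO2 (0.0533), a powdery mildew susceptibility gene, and WRKY11 (0.0619). WRKY11 was also second nearest to PBL1 (0.0758), after AT5G11970 (0.0681). SOBIR1 had as nearest genes PEN2 (0.116), a myrosinase of penetration resistance, and FLS2 (0.12), and RBOHD had AT1G03370 (0.0625) and CERK1 (0.0646). For FLS2 they were AT5G39020 (0.111) and AT2G39210 (0.114), for BIK1 CRK2 (0.108) and OPT1 (0.123), for BAK1 LRX3 (0.0655) and UBC25 (0.0667), and for BKK1 AT1G52190 (0.0759) and MIOX2 (0.089). LYK5 had GLR2.7 (0.15) and AT1G30755 (0.162) as nearest, and EFR, the gene with the fewest counts, AT4G15260 (0.132) and ABCG5 (0.139). Among the members themselves, FLS2 and SOBIR1 were nearest to each other (0.12), as were CERK1 and RBOHD (0.0646) and EFR and BKK1 (0.147), whereas BIK1 was closest to BKK1 (0.192) and not to its paralogue PBL1. These likenesses are descriptions over libraries that share the genotype difference.

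The members lie on chromosomes 2 (LYK5, BKK1, BIK1 and SOBIR1), 3 (CERK1 and PBL1), 4 (BAK1) and 5 (FLS2, EFR and RBOHD). SOBIR1 and LYK5 are given as single exons, while BAK1 and CERK1 have 12 exons each, and all 51 introns of the 10 genes begin with GT and end with AG on TAIR10.1. SOBIR1 overlaps AT2G31890 on the opposite strand by 478 bases. That neighbour had 29.2 ± 2.14 CPM in Col-0 and 25.6 ± 4.39 CPM in ixr1-1 in DMSO (log2 fold change -0.21 ± 0.10, SE; edgeR adjusted p = 0.161), whereas SOBIR1 differed by 1.42 in the other direction. EFR shares a stretch of 106 bases at 97.2% identity with AT1G09995, so a small part of its reads may be uncertain.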

How the data were processed

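Whole-seedling mRNA was sequenced in 12 libraries, grouped and numbered as the labels give them. The authors deposited raw counts in featureCounts format, per the file headers, with 0 features lacking a name and 0 columns of other series. Tools listed in the submitters' processing notes are STAR 2.4.1, featureCounts 1.4.6, FastQC 11.1 and bcl2fastq. The build, the annotation and the strand setting of counting were not found in the labels or headers (not given in the sources used here), so reads of genes that overlap on opposite strands may be mixed.

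After filterByExpr and TMM scaling, edgeR 4.0.16 in R 4.3.3 tested the counts (glmQLFit, robust; glmQLFTest) in 1 model with a term per group. P-values were adjusted by Benjamini-Hochberg over 20379 genes, with a threshold of 0.05. SE was the log2 fold change divided by the root of F. Intervals are the log2 fold change ± 1.96 SE, nominally 95%. They use a normal quantile and are narrower than the F test implies. Alternatives used DESeq2 1.42.0 and limma 3.58.1. The fit was tested on simulated data. Each pair of replicates differed beyond sampling noise (chi-square per degree of freedom of at least 2.77).

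The members, lists, the seed storage covariate and the leaving out of both ixr1-1 libraries numbered 1 were chosen with earlier results of these data known. Named genes are all members and, from each list and comparison, up to 4 called genes by adjusted p (where none was called, the gene with the lowest raw p), with the 2 genes of most like pattern per member (average log2 CPM of at least 1). Not every gene this takes is printed; XLG2, FRK1, RBOHH, RBOHJ and AT2G31890 lie outside it and were chosen after their values were seen. Sequences are from RefSeq on TAIR10.1, read with Biopython 1.88; near copies were sought with blastn 2.17.0.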

Additional observations from a re-analysis of the deposited data

Results flagged for a closer look

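The effect of isoxaben differed between the genotypes for 3 genes of the pathway lists, by the interaction term of edgeR with Benjamini-Hochberg adjustment, and none of them is among the 10 receptor and coreceptor genes. The difference, ixr1-1 minus Col-0 on the log2 scale, was -1.19 ± 0.24 (SE; adjusted p = 0.0389) for PEPR2, which had 6.14 and 14.7 CPM in DMSO and isoxaben in Col-0 and 6.89 and 7.44 CPM in ixr1-1. It was -3.20 ± 0.44 (SE; adjusted p = 0.00186) for PROPEP3, with 0.985 and 4.80 CPM in Col-0 and 3.81 and 2.01 CPM in ixr1-1. For MPK3 it was -0.76 ± 0.14 (SE; adjusted p = 0.0161), with 33.1 and 48.8 CPM in Col-0 and 65.1 and 56.5 CPM in ixr1-1. Leaving out 1 library at a time, the call held in 12 of 12 fits for PROPEP3, in 7 for MPK3 (highest adjusted p 0.0847, without ixr1-1 DMSO 2) and in 3 for PEPR2 (highest adjusted p 0.224, without ixr1-1 DMSO 2). The call of MPK3 was lost without Col-0 DMSO 1, Col-0 isoxaben 1, ixr1-1 DMSO 2, ixr1-1 DMSO 3 or ixr1-1 isoxaben 3. That of PEPR2 was lost by limma-voom and held without Col-0 isoxaben 1, ixr1-1 DMSO 1 or ixr1-1 isoxaben 2.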

How the results depend on the processing

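For ixr1-1 against Col-0 in DMSO, 10 of 10 genes were called under each alternative run and without each library (lowest and highest 10), except 0 with the seed storage covariate and 3 with the shoot marker covariate, the latter chosen after seeing the data. In isoxaben, 7 genes were called, with 4 after thinning all libraries to 8521491 counts, 0 with either covariate and 3 to 8 without single libraries. The other settings gave 5 to 9; the cause of these shifts was not tested. With the seed storage covariate, which cannot be told apart from the genotype, the estimates in isoxaben of EFR and LYK5, called before, were -0.27 and -0.28. Those of CERK1, BAK1 and RBOHD, not called before, were -0.25, -0.30 and -0.12. None of these was called in that fit, so their signs are not read as a result. With the shoot covariate CERK1, BAK1 and RBOHD were at -0.09, -0.23 and -0.11. Isoxaben called 0 of the 10 genes in either genotype under each alternative run, and the interaction 0, except 1 with the replicate block by number within genotype (LYK5, -0.69, adjusted p = 0.05 after rounding, under the threshold). Whether a replicate number marks a divided flask is not stated, so pairs could not be taken as given. Same-number deviations correlated from 0.0300 to 0.205 in Col-0 and from 0.0304 to 0.312 in ixr1-1. In Col-0 each library correlated best with its own number, but for isoxaben 1 this was nearly a tie. It correlated at 0.02999 with DMSO 1 and at 0.02985 with DMSO 2. In ixr1-1 library 3 did not correlate best with its own number. With the replicate block within genotype, all genes called went from 159 to 367 for isoxaben in Col-0 and from 64 to 180 for the interaction, and with the block by number from 7 to 5 of the 10 genes for the genotype in isoxaben. The block within genotype called 13 genes for isoxaben in ixr1-1 and that by number 99 for the interaction, where DESeq2 called 104. Of all genes, thinning left 89 for isoxaben in Col-0, 39 for the interaction and 1616 for the genotype in isoxaben, and a fit of the Col-0 groups alone called 243 for isoxaben. The shoot marker covariate left 1208 and 167 for the genotype in DMSO and isoxaben, the seed storage covariate 0 in both. Without single libraries all genes called ran from 77 to 193 for isoxaben in Col-0, 2281 to 3798 and 1549 to 2756 for the genotype in DMSO and isoxaben, and 22 to 113 for the interaction. With scaling by library size alone the median log2 fold change of all genes was at most 0.0721, for the genotype in isoxaben, where it was 0.00348 with TMM. EFR had the fewest counts, 40 to 167 a library, and FLS2 the largest SE of the 10 in each comparison.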
